A study of Mus musculus with 15 samples.

Results

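The nuclear genes for the subunits of respiratory chain complexes II, III and IV and of the ATP synthase (complex V) were examined in quadriceps muscle of adult mouse offspring. Members were the protein coding genes of the annotation named Sdha, Sdhb, Sdhc, Sdhd or Cyc1, or with a symbol starting with Uqcr, Cox4 to Cox8 or Atp5. Of 48 such genes, 45 had a mean normalized count of at least 10 over all libraries and were kept, out of 13499 genes above that mean and 50686 genes in the table. They comprised 4 genes of complex II, 9 of complex III, 15 of complex IV and 17 of complex V. The other 3 were testis-type subunit Cox6b2, with a mean of 8.00, and Cox7b2 and Cox8c, both with no read in any library. A symbol can differ from a role: Atp5s and Cox7a2l qualified by name, while the ATP synthase genes Atpif1 and Usmg5 did not.

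Complex II, succinate dehydrogenase, passes electrons from succinate of the citric acid cycle to ubiquinone. Complex III passes them from ubiquinol to cytochrome c, and complex IV, cytochrome c oxidase, from cytochrome c to oxygen. Complexes III and IV pump protons, and complex V uses the proton gradient to make ATP. Complex II is encoded wholly in the nucleus, whereas complexes III, IV and V each hold subunits made from mitochondrial DNA. Muscle and heart carry their own isoforms of several complex IV subunits, and oxidative fibres hold more mitochondria than glycolytic ones.

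All animals were C57BL/6 offspring that were kept on chow and without a wheel after birth and were 10 months old at collection. For 6 weeks before mating the parents were fed either chow or food with 60% fat, and every pregnant dam was housed with a running wheel, locked in the sedentary groups. In the control group (NCS) both parents ate chow and the dam was sedentary, and this single group serves both arms of the study. In the maternal sedentary (MHS) and maternal exercised (MHE) groups the mother had eaten the high-fat diet and the sire was lean. In the paternal sedentary (PHS) and paternal exercised (PHE) groups the sire had been fed high fat, and his lean mate had a locked or a free wheel. Each group held 3 libraries, 15 in all. No group combined chow-fed parents with an exercised dam. Litters are not given in the labels, so each p-value reflects only how these particular samples varied.

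Libraries held 18457663 to 26981745 counted reads, and the 45 members took 1.23% to 1.66% of them. The skeletal muscle genes Ckm, Acta1, Mb, Des, Ttn and Neb together gave 79829 to 96940 CPM, read counts scaled to an equal library total. Liver transcripts (30 genes such as Alb) reached 4559 CPM in maternal sedentary replicate 2, 563 in maternal sedentary replicate 3, 294 in the first paternal sedentary replicate and 214 in the second control replicate, against 23.1 to 53.9 in the other 11 libraries. Control replicate 2, maternal sedentary replicate 3 and paternal sedentary replicate 3 held the least mitochondrially encoded RNA, 5307 to 9034 CPM for mt-Cytb and mt-Co1 together, against 11506 to 21216 in the other 12. The first 2 of these also had the fewest detected genes, 17699 and 17581, against 19062 to 20771. Slow fibre genes (14 genes such as Myh7) ranged from 817 CPM in paternal exercised replicate 1 to 6020.

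Values below are normalized counts, that is, reads divided by the authors' size factor of the library. Differences are of the group means of log2(normalized count + 1), tested with limma over all 13499 genes. By limma 0 of 45 members and 0 of 13499 genes (0%) passed an adjusted p of 0.05 in any comparison, and edgeR and voom called 0 genes too. DESeq2 called between 0 and 65 genes per comparison, with 0 members among them. The counts of members at an unadjusted p under 0.05 are given with each comparison. All differences are therefore values and counts, and none is called a rise or a fall. In whole tissue, fewer mitochondria-rich cells and less RNA per cell cannot be told apart.

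**Figure D1:**
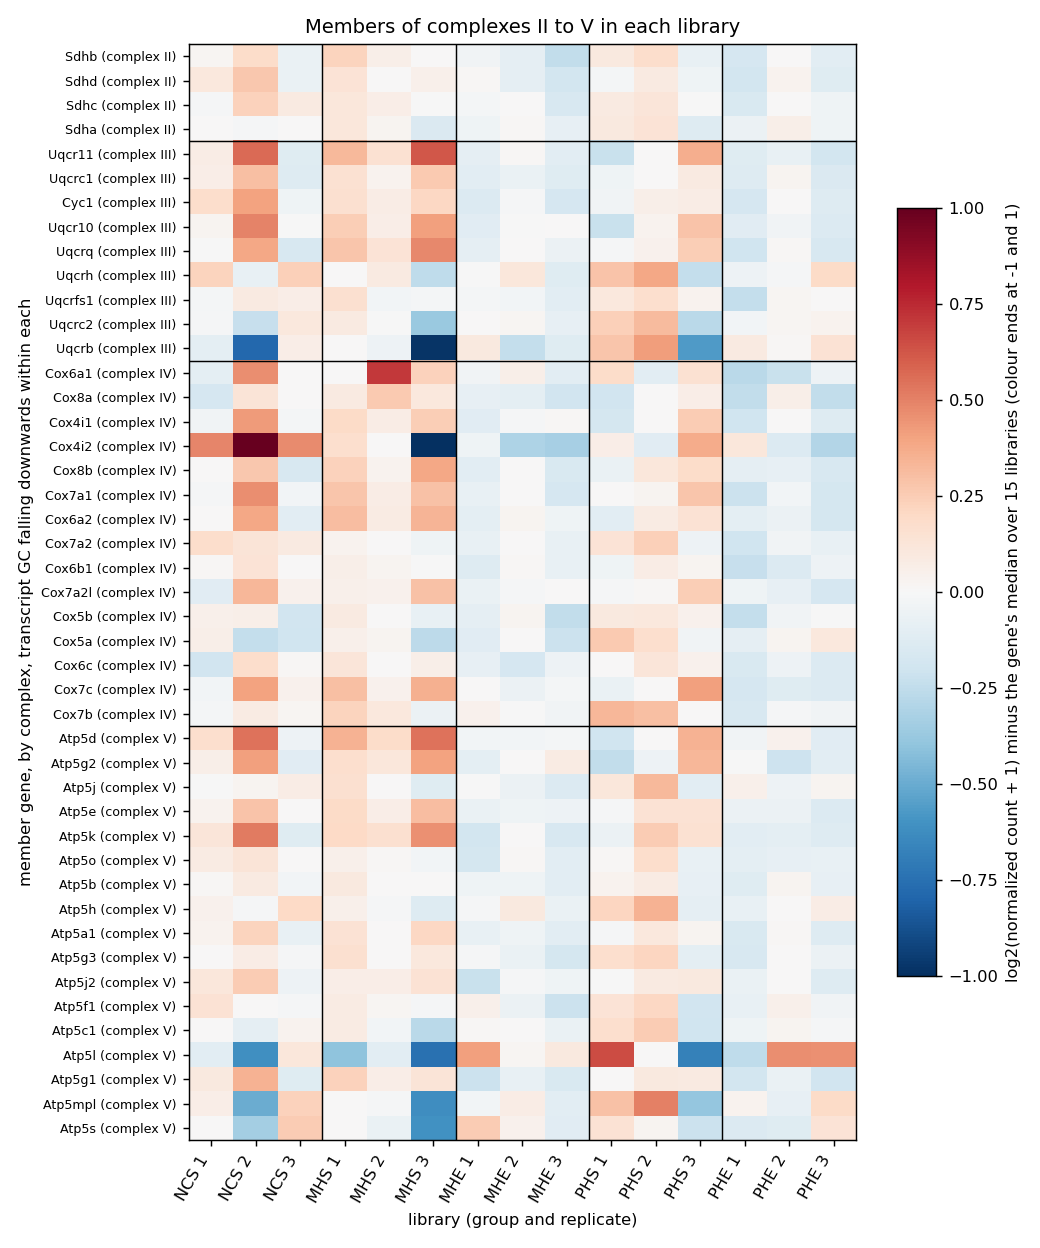
Each row is a member gene, grouped by complex with transcript GC content falling downwards, and each column is a library; colour gives log2(normalized count + 1) minus the gene's own median over 15 libraries, with the scale ending at -1 and 1. Control replicate 2, maternal sedentary replicate 3 and paternal sedentary replicate 3 are red at the top and blue at the bottom of complexes III and V, and in the exercised-dam groups replicates 1 and 3 are mostly pale blue, with 35 to 41 of 45 members below their own median, while replicate 2 of each has 23.

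The members were lower on average in offspring of exercised dams in both arms. In the maternal arm, 36 of 45 members had a lower mean with exercised than with sedentary high-fat dams, where 49.6% of all genes did. The median difference was -0.15 (log2), or -10.1%, and the median over all genes was 0.00. In 23 members all 3 exercised libraries lay below all 3 sedentary ones (8.61% of all genes), and in 1, Atp5l, all lay above (8.56%). An unadjusted p under 0.05 was reached by 12 members, all lower (9.54% of all genes), with adjusted p between 0.52 and 0.91 over the 45.

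By complex, the median maternal difference was -0.13 in complex II (4 of 4 lower), -0.25 in III (6 of 9), -0.16 in IV (14 of 15) and -0.10 in V (12 of 17). The direction was not shared by all complex III and V genes: Uqcrb, Uqcrc2 and Uqcrh in III, and Atp5l, Atp5mpl, Atp5s, Atp5c1 and Atp5h in V, had higher means in exercised offspring. Scaling to total reads in place of the size factors shifted the median of all genes by 0.10. It left 26 members lower (36.1% of all genes) with a median of -0.05, or -0.16 relative to all genes. Without the 3 libraries of least mitochondrially encoded RNA, 43 of 45 members were lower with a median of -0.16. That fit leaves maternal sedentary replicates 1 and 2, and replicate 1 had only 1 of 45 members below its own median. Leaving out maternal sedentary replicate 3 alone also gave 43 lower members, and leaving out replicate 1 alone gave 34.

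In the paternal arm, 43 of 45 members had a lower mean with exercised than with sedentary lean dams, against 48.2% of all genes. The median was -0.13, or -8.90%, and Uqcrb and Atp5l were the members with a higher mean of log2 values (0.04 and 0.23). The mean normalized count of Uqcrb was lower, 1828 with exercised against 1856 with sedentary dams. Complex medians were -0.12 in II, -0.13 in III, -0.18 in IV and -0.12 in V, and all 15 complex IV members were lower. In 12 members all exercised libraries lay below all sedentary ones (5.5% of all genes), 8 of them in complex IV, and in 0 members all lay above (5.11%). Only 2 members, Cox7a2 and Cox7b, reached an unadjusted p under 0.05 (3.76% of all genes), and adjusted p was 0.99 for all 45. On total reads 44 were lower with a median of -0.22, or -0.15 relative to all genes, of which 65.2% were lower. On the size factors, without paternal sedentary replicate 3, Uqcrb and Atp5l turned lower but Atp5d and Atp5g2 turned higher, so 43 were again lower. Without paternal sedentary replicate 2, 36 of 45 were lower.

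Against the control group, members again had lower means in both exercised groups. Maternal exercised offspring had lower means for 38 of 45 members (47.4% of all genes) with a median of -0.12, and paternal exercised offspring for 39 of 45 (50.1%) with a median of -0.15. These comparisons share the 3 control libraries. Values of all 3 exercised libraries lay below all controls in 6 members (4.72%) and 8 members (8.7%). Unadjusted p under 0.05 was reached by 3 members (8.76% of all genes) and 4 members (13.7%). Without control replicate 2 in a fit that also left out maternal sedentary replicate 3, the medians were -0.07 and -0.09, and 38 of 45 members were lower in the maternal exercised group, 32 of them among the 38 above. Cox6a1, Cox6a2, Uqcrq, Atp5g2, Cox7a2l and Cox7b turned higher there.

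The high-fat groups with sedentary dams had no common direction against controls. Maternal sedentary offspring had lower means for 20 of 45 members (47% of all genes) with a median of 0.03, and paternal sedentary offspring for 25 of 45 (49%) with a median of -0.01. All maternal sedentary libraries lay below all controls in 2 members, Cox4i2 and Cox7a2 (3.58% of all genes), and above in 0 (4.44%), and the paternal sedentary ones below in 1, Cox4i2 (3.05%), and above in 0 (2.64%). Only Cox4i2 reached an unadjusted p under 0.05 in the former (4.04% of all genes), and no member did in the latter (2.87%). These counts depended on a few libraries: without the 4 libraries that held liver transcripts, 7 and 9 of 45 members were lower, the 7 in a maternal sedentary group of 1 library, and without the 3 of least mitochondrially encoded RNA, 11 and 10. Leaving out control replicate 2 alone gave 11 lower in the paternal comparison. On total reads 6 members were lower in paternal sedentary offspring (32.0% of all genes) with a median of 0.088. But the median of all genes was then 0.10, and the members lay at -0.02 relative to it.

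The exercise differences of the maternal and paternal arms were compared directly. Of 45 members, 24 had a smaller value in the maternal arm (50.4% of all genes) and the median of the difference was -0.01. No member reached an unadjusted p under 0.05 (1.8% of all genes). On total reads the median of all genes moved by 0.19, and the members' median was 0.18, or -0.01 relative to all genes.

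**Figure D2:**
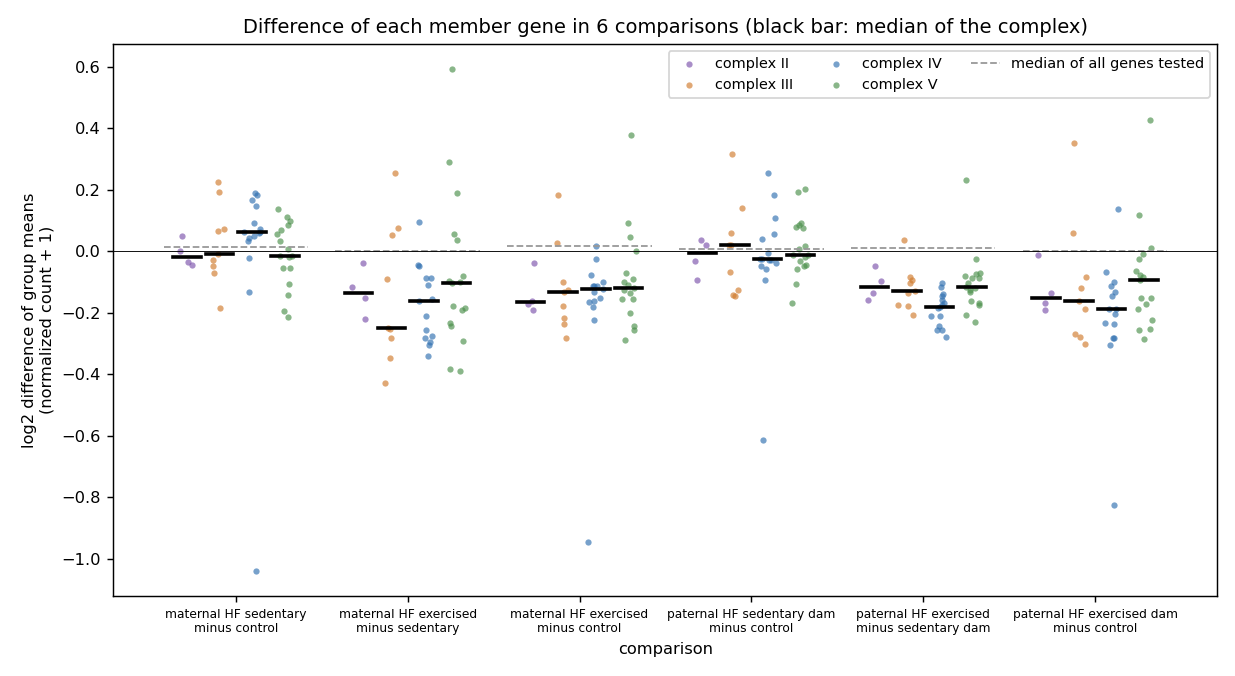
Each point is a member gene and gives the log2 difference of group means in the comparison named on the horizontal axis, with black bars at the median of each complex and dashed lines at the median of all 13499 genes. In the 4 comparisons that involve exercised dams the bars of all complexes lie below the dashed line, from -0.25 to -0.09, and in the other pair they lie between -0.03 and 0.06.

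Marker genes of other cells moved in part with these comparisons. Slow fibre genes had lower means in exercised offspring for 12 of 13 tested in the maternal arm (median -0.35) and 13 of 13 in the paternal arm (median -0.97), with none past the adjusted threshold. Their sum was 3372 to 5602 CPM in maternal sedentary, 2374 to 5319 in maternal exercised, 3455 to 6020 in paternal sedentary and 817 to 3893 in paternal exercised offspring. Controls spanned 1322 to 5909. Myh7, the slow myosin heavy chain, had 3385 to 44445 reads per library and differed by -0.57 ± 0.62 with maternal and -1.16 ± 0.62 with paternal exercise (limma, adjusted p = 0.70 and 0.99). Liver genes were lower in maternal exercised offspring for 29 of 29 tested. Their range was 29.9 to 4559 in sedentary and 26.5 to 53.9 CPM in exercised libraries of that arm. Alb alone had 66 to 44946 reads in the first and 6 to 255 in the second. In the paternal arm 17 of 29 liver genes were lower. Fast fibre genes were lower with exercised dams for 11 of 12 in the maternal arm (median -0.12) and 5 of 12 in the paternal arm (median 0.04). Macrophage genes were lower for 7 of 8 and 8 of 8 (medians -0.65 and -0.43). Endothelial genes were lower for 3 of 8 and 8 of 8 (medians 0.06 and -0.14). Erythroid genes were higher for 5 of 5 in paternal exercised offspring, with 33.1 to 65.1 CPM in the sedentary and 65.1 to 135 in the exercised group. Against controls their median was -1.09 in paternal sedentary and 0.14 in paternal exercised offspring. In the maternal arm 4 of 5 were higher with exercised dams (median 0.03). Adipocyte genes were lower for 5 of 8 in the maternal and 3 of 8 in the paternal arm (medians -0.10 and 0.13). The brown fat gene Ucp1 had no read in any library, and heart Myh6 had 8 to 233 reads. The contribution of fibre types, liver transcripts, blood, macrophages, endothelial cells and adipocytes to the members' values was not tested, apart from the fit without the 4 liver libraries. In that fit 42 of 45 members were lower with exercised dams in the paternal arm. In the maternal arm 43 were, but there the sedentary group was replicate 1 alone, which had the highest member median of the libraries left.

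Complex II varied least. Its within-group standard deviation had a median of 0.10 (log2) over 4 genes, against 0.19 in complex III, 0.14 in IV, 0.12 in V and 0.26 over all genes tested. Sdha, the flavoprotein that oxidizes succinate, had normalized counts of 15622, 15504 and 15693 in controls, 16878, 15883 and 14168 in maternal sedentary and 15146, 15710 and 14755 in maternal exercised offspring. It had 16696, 17149 and 14305 in paternal sedentary and 14966, 16262 and 15191 in paternal exercised offspring. The highest library was 1.21 times the lowest, and all groups overlapped.

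Sdhb, the iron-sulfur subunit that carries the electrons onward, had 7478, 8369 and 7021 in controls, 8592, 7669 and 7404 in maternal sedentary and 7181, 6914 and 6213 in maternal exercised offspring. All 3 maternal exercised libraries lay below the 3 maternal sedentary ones. In the paternal arm it had 7903, 8322 and 6990 in sedentary and 6562, 7366 and 6859 in exercised offspring, where the groups overlapped. Sdhb had the smallest p of complex II for exercise in both arms: -0.22 ± 0.11 (SE; limma, adjusted p = 0.52) in the maternal and -0.16 ± 0.11 (adjusted p = 0.99) in the paternal arm. The arms differed by -0.06 ± 0.15 (limma, adjusted p = 1.00).

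Sdhc and Sdhd are the membrane anchors that hold the ubiquinone site. Sdhc averaged 5069 ± 422 (SD, n = 3) in controls, 4904 ± 201 in maternal sedentary, 4528 ± 267 in maternal exercised, 4946 ± 224 in paternal sedentary and 4507 ± 248 in paternal exercised offspring. Sdhd averaged 4382 ± 513 in controls, 4258 ± 210 and 3831 ± 257 in the maternal groups, and 4093 ± 211 and 3829 ± 300 in the paternal groups. Both had their lowest means in the exercised groups. The Sdhd difference from controls was -0.19 ± 0.11 in each exercised group (limma, adjusted p = 0.60 and 0.42). For the sedentary groups, complex II gave Sdhc at -0.05 ± 0.10 (adjusted p = 1.00) in the maternal and Sdhd at -0.09 ± 0.11 (adjusted p = 0.92) in the paternal comparison, and both signs turned without some of the libraries.

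Complex III had the widest spread between replicates, most of it in its small subunits. Cyc1, cytochrome c1, had 8366, 9813 and 7190 in controls, 8308, 7816 and 8580 in maternal sedentary, 6754, 7353 and 6616 in maternal exercised, 7224, 7739 and 7813 in paternal sedentary and 6589, 7415 and 6764 in paternal exercised offspring. Maternal exercised values lay below all maternal sedentary ones, and the exercised groups overlapped the controls through control replicate 3. Cyc1 had the smallest p of the complex against controls: -0.28 ± 0.11 in maternal exercised (limma, adjusted p = 0.57), -0.28 ± 0.11 in paternal exercised (adjusted p = 0.32) and -0.14 ± 0.11 in paternal sedentary offspring (adjusted p = 0.92).

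Uqcrfs1, the Rieske iron-sulfur protein, averaged 7247 ± 285 in controls, 7205 ± 532 and 6763 ± 231 in the maternal groups, and 7545 ± 350 and 6687 ± 637 in the paternal sedentary and exercised groups. It had the smallest p of complex III for exercise in the paternal arm, -0.18 ± 0.10 (limma, adjusted p = 0.99), with no overlap of the groups. The core proteins Uqcrc1 and Uqcrc2, which form the matrix-side body of the complex, did not go together. Uqcrc1 averaged 14174 ± 2083 in controls, 14809 ± 1151 and 12441 ± 266 in the maternal and 13453 ± 632 and 12606 ± 822 in the paternal groups. Uqcrc2 averaged 5175 ± 603 in controls, 5024 ± 815 and 5246 ± 192 in the maternal and 5770 ± 1184 and 5366 ± 118 in the paternal groups. In control replicate 2 Uqcrc1 was at its highest, 16359, while Uqcrc2 was at 4530, below all but 2 libraries.

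Among the small subunits, Uqcrq, which takes part in binding ubiquinone, had the smallest p of complex III for maternal exercise: -0.35 ± 0.14 (limma, adjusted p = 0.52). Its values were 5777, 5244 and 6656 in maternal sedentary and 4486, 4767 and 4568 in maternal exercised offspring, without overlap. Controls had 4747, 6244 and 4269, and maternal sedentary against control gave 0.22 ± 0.14 (limma, adjusted p = 1.00).

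The small subunits Uqcr11 and Uqcrb went opposite ways between libraries, and were singled out after their values were seen. Uqcr11 had 4491, 6336 and 3933 in controls, 5361, 4759 and 6569 in maternal sedentary, 4012, 4313 and 3964 in maternal exercised, 3669, 4275 and 5495 in paternal sedentary and 3921, 4060 and 3761 in paternal exercised offspring. Uqcrb had 1609, 1002 and 1810 in controls, 1726, 1664 and 876 in maternal sedentary, 1842, 1462 and 1583 in maternal exercised, 2087, 2312 and 1168 in paternal sedentary and 1835, 1740 and 1907 in paternal exercised offspring. The 3 libraries with the most Uqcr11, control replicate 2, maternal sedentary replicate 3 and paternal sedentary replicate 3, were the 3 with the least Uqcrb. Reads of Uqcr11 per read of Uqcrb were 4.71 to 7.50 in these and 1.76 to 3.11 in the other 12. For 15.8% of the 100-base windows of Uqcrb transcripts the same sequence occurs in other genes, so its level is uncertain. For Uqcr11 none does. The difference between the exercise effects of the arms was -0.25 ± 0.25 for Uqcr11 (limma, adjusted p = 1.00).

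**Figure D3:**
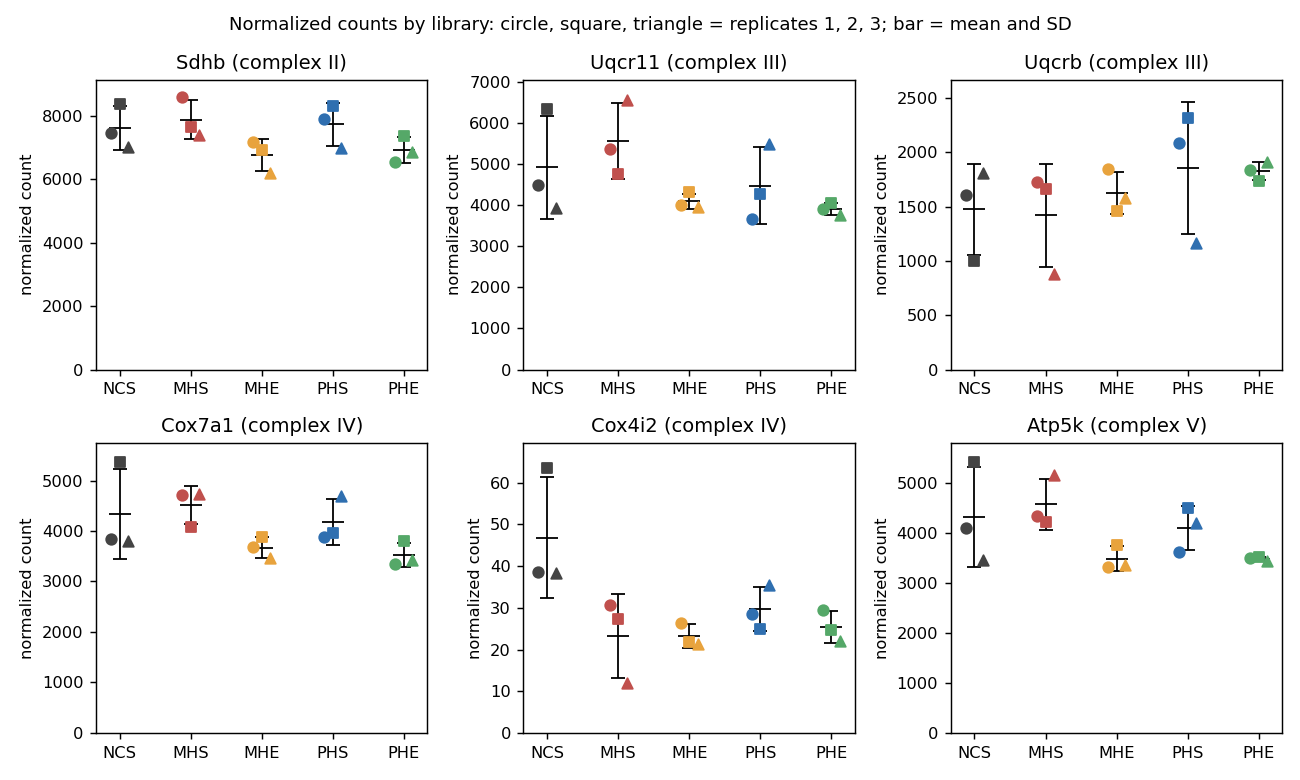
Normalized counts of 6 members are shown by group, with circle, square and triangle for replicates 1, 2 and 3 and bars for the mean and standard deviation of 3 libraries; every vertical axis starts at 0. Uqcr11 and Uqcrb mirror each other in the 3 libraries named above, Sdhb is tight by comparison, and the 3 control libraries have the highest Cox4i2 values, 38.3 to 63.6. The next highest Cox4i2 value is 35.4, in paternal sedentary replicate 3.

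The behaviour of members in the 3 libraries was partly ordered by the base composition of their transcripts. The first 90 coding bases of the member with the highest and the member with the lowest transcript GC content in complexes III, IV and V are printed to show how far composition differs within a complex, with G and C in capitals, from the GENCODE M21 transcripts (GRCm38).
Uqcr11: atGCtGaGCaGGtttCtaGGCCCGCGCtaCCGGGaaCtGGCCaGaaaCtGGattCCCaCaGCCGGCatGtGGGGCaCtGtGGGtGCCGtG
Uqcrb: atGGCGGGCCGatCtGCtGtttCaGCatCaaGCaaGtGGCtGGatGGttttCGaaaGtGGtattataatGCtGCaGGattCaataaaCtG
Cox6a1: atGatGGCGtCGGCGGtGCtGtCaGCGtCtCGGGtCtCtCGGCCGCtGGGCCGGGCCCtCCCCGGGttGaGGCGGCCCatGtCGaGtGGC
Cox7b: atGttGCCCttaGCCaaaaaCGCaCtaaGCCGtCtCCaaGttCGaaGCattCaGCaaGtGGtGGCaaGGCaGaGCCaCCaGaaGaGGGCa
Atp5d: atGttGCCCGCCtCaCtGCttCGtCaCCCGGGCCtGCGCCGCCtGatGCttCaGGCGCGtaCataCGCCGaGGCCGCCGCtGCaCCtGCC
Atp5s: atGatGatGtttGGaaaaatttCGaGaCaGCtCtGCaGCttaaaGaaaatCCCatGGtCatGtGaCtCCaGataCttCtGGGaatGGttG

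Of the 90 bases shown, 57 are G or C in Uqcr11 and 41 in Uqcrb, 66 in Cox6a1 and 48 in Cox7b, and 63 in Atp5d and 37 in Atp5s. Over the whole transcript the GC content is 58.9% for Uqcr11 and 42.2% for Uqcrb, 58.8% for Cox6a1 and 42.0% for Cox7b, and 61.1% for Atp5d and 40.2% for Atp5s. These genes lie at chr10:80402997-80406830 (Uqcr11, minus strand), chr13:66900617-66905378 (Uqcrb, minus), chr5:115345642-115348981 (Cox6a1, minus), chrX:106015700-106022450 (Cox7b, plus), chr10:80138632-80145818 (Atp5d, plus) and chr12:69724950-69744660 (Atp5s, plus).

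Of the 15 members of highest GC content, 14 were higher in the 3 libraries than in the other 12 by their medians, and of the 15 of lowest GC content 5 were. The median deviation of the high GC members was 0.18 to 0.41 in the 3 libraries and -0.13 to 0.19 in the others. That of the low GC members, -0.14 to -0.01, lay within the range of the others, -0.15 to 0.15. Reads of Atp5d per read of Atp5s were 77.7 to 117 in the 3 libraries and 41.5 to 66.9 in the others, whereas those of Cox6a1 per read of Cox7b overlapped, 0.0928 to 0.109 against 0.0633 to 0.127. In the 3 libraries, the correlation across the 45 members between transcript GC content and the member's deviation from its median was 0.54 to 0.68, and in the other 12 libraries it ran from -0.62 to 0.50. Over all tested genes it was 0.39 to 0.48 in the 3 and -0.35 to 0.14 in the 12. These correlations are across genes of 1 library, which share depth and preparation and are not independent. The log2 gap between the 15 members of highest GC (54.6% to 61.1%) and the 15 of lowest GC (40.2% to 49.0%) was 0.22 to 0.42 in the 3 libraries and -0.19 to 0.10 in the others. In all, 7 members had all 3 libraries above the other 12 (5.42% of all genes): Uqcr10, Uqcr11, Cox4i1, Cox7a2l, Cox7c, Atp5d and Atp5g2. Another 6 had all 3 below (10.4%): Uqcrb, Uqcrc2, Atp5c1, Atp5l, Atp5mpl and Atp5s. The 6 are all among the 15 of lowest GC, and 5 of the 7 are among the 15 of highest. Cox7c, with 46.7% GC, and Cox7a2l, with 49.9%, were above despite a GC content under the member median of 50.5%. The contribution of RNA quality or library preparation was not tested. With the GC trend over all genes removed in each library, 39 members were lower in the maternal and 44 in the paternal exercised group than in the sedentary group. The shares of all genes were 50.8% and 50.4%. Across the 45 members the correlation with GC content then still ran from -0.28 in maternal exercised replicate 2 to 0.43 in paternal exercised replicate 1.

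**Figure D4:**
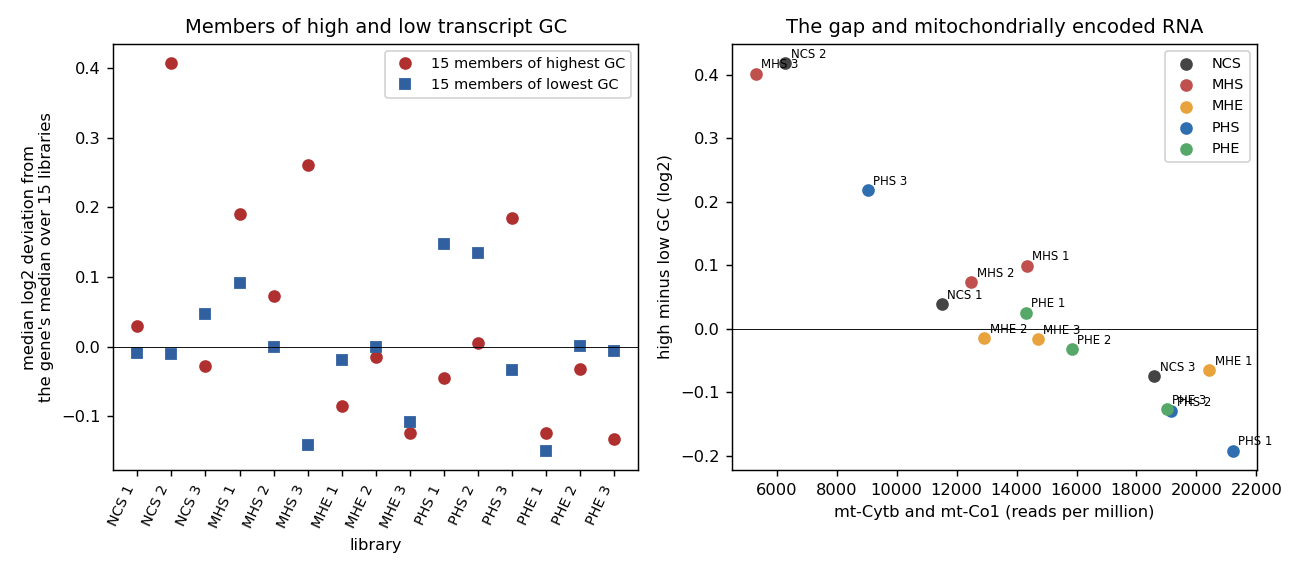
Left, the median log2 deviation of the 15 members of highest (red circles) and lowest (blue squares) transcript GC content in each of 15 libraries. Right, their difference against mt-Cytb and mt-Co1 in CPM, coloured by group, where the 3 libraries of least mitochondrially encoded RNA sit at 0.22 to 0.42 and the others between -0.19 and 0.10.

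In complex IV the muscle and ubiquitous isoforms of 3 subunits could be set side by side per kilobase of exon. Cox6a2, the heart and muscle form of subunit 6a, exceeded Cox6a1, the form of other tissues, in every library, with a log2 ratio of 5.03 to 5.96. Cox8b, the heart and muscle form of subunit 8, exceeded Cox8a with 4.15 to 4.66. Cox7a1, the heart and muscle form of subunit 7a, exceeded Cox7a2 with only 1.38 to 1.92. In linear terms the mean ratios were 49.9 for subunit 6a, 21.7 for subunit 8 and 3.07 for subunit 7a. For Cox7a1 to Cox7a2 the maternal sedentary values, 1.66 to 1.92, lay above those of both exercised groups, which reached at most 1.59. The highest ratios, 1.915 to 1.925, were in control replicate 2, maternal sedentary replicate 3 and paternal sedentary replicate 3. These are the libraries of least mitochondrially encoded RNA. For Cox8b to Cox8a the paternal sedentary values, 4.485 to 4.507, lay just above the maternal exercised ones, 4.361 to 4.476. All other pairs of groups overlapped for these 3 ratios. How often ratios of other gene pairs separate between groups was not computed, so these separations are description only.

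**Figure D5:**
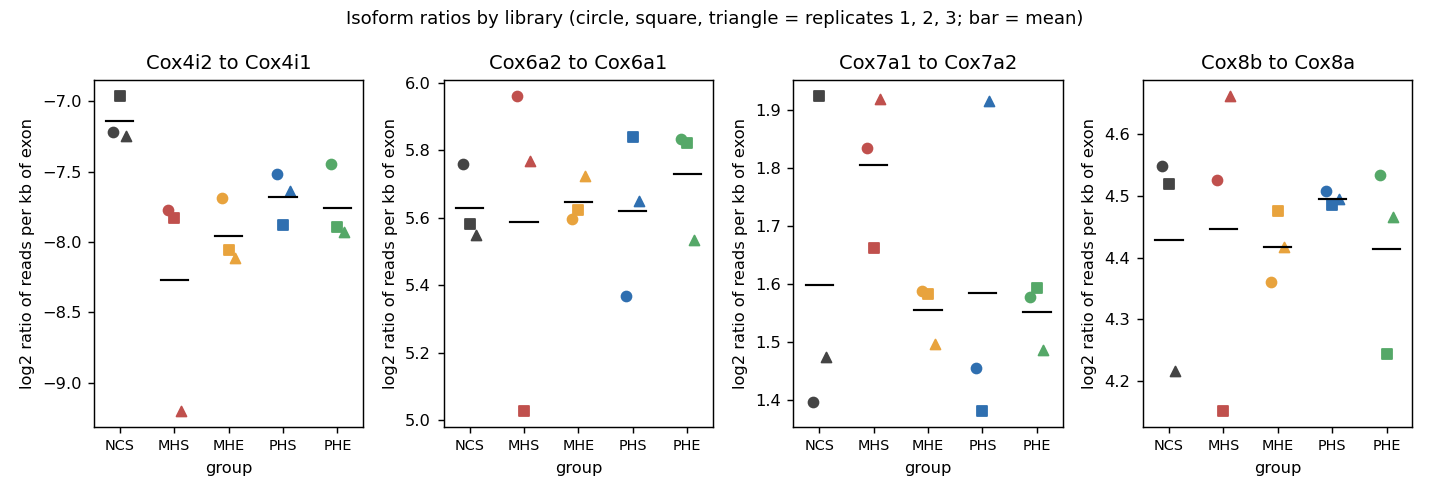
Each panel gives the log2 ratio of reads per kilobase of exon of 2 isoform genes in each library, by group, with circle, square and triangle for replicates 1, 2 and 3 and a bar at the mean of 3; vertical axes differ and do not start at 0. Cox4i2 to Cox4i1 is at -7.25 to -6.96 in controls, above all 12 other libraries, whereas in the other panels most pairs of groups overlap. Maternal sedentary lies above both exercised groups for Cox7a1 to Cox7a2, and paternal sedentary above maternal exercised for Cox8b to Cox8a. The share of other gene pairs that separate in these ways was not computed.

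The windows before the start sites of 3 of these isoform genes are printed: Cox8a and Cox8b, whose levels differ by this much for the same place in the complex, and Cox6a1, a ubiquitous form whose window holds NRF1 matches. They are the 250 bases upstream of the start in RefSeq (GRCm38.p6), read on the gene's strand, at chr5:115348959-115349208 for Cox6a1, chr19:7217617-7217866 for Cox8a and chr7:140900447-140900696 for Cox8b, all on the minus strand. Capitals mark matches on either strand to the motifs of NRF1, ETS factors, SP1 or the MyoD E-box named next. A match is a description of letters and not a bound site.
Cox6a1: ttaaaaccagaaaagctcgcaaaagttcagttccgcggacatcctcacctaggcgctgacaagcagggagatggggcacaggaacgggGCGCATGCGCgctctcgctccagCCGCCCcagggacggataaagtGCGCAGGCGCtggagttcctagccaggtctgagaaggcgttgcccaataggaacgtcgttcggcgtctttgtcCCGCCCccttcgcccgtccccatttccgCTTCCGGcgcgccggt
Cox8a: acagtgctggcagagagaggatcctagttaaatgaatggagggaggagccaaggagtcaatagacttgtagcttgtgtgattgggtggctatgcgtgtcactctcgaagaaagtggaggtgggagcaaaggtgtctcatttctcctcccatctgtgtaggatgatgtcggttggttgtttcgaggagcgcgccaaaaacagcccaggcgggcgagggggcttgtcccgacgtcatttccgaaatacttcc
Cox8b: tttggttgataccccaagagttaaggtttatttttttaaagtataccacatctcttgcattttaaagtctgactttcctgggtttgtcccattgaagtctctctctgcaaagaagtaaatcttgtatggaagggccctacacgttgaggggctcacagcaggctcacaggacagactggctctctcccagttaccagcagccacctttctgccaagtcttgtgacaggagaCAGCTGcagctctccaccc

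The Cox6a1 window holds 2 NRF1 matches, 2 SP1 matches (GGGCGG) and 1 ETS match (CCGGAAG). Cox8a has an ETS match across its start and a second one after it, beyond the bases shown, and Cox8b has an E-box (CAGCTG) before its start and another after it. RefSeq windows of 300 bases, 250 before the start and 50 after, were found for 34 of 45 members, 37 windows in all. The NRF1 motif was in 10 of 37 (27.0%) and in 4.60% of all 32851 windows. Of the 11 complex IV windows only 1, that of Cox6a1, held it. The ETS motif was in 12 of 37 (32.4%) and in 8.86% of all. For SP1 the shares were 32.4% and 35.7%, and for the E-box 5.41% and 16.3%. The motif of YY1 (AANATGGC) was in 13.5% of member windows and 6.05% of all, that of ERR (TCAAGGTCA) in 5.41% and 0.42%, and that of MEF2 in 2.70% and 3.69%. Of the 11 complex IV windows only that of Cox8b held the E-box. The window of Cox7a1, also a heart and muscle form, held none of these motifs, and that of Cox7a2 held only SP1. Both strands were searched and a stretch that matched more than 1 motif counted for each.

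Cox4i2, the form of subunit 4 known from lung and hypoxia, was sparse and gave the largest log2 differences from controls. Its normalized counts were 38.6, 63.6 and 38.3 in controls, 30.7, 27.2 and 11.9 in maternal sedentary, 26.5, 21.9 and 21.4 in maternal exercised, 28.5, 25.0 and 35.4 in paternal sedentary and 29.5, 24.7 and 22.1 in paternal exercised offspring. These rest on 11 to 63 reads per library. All 3 controls lay above all 12 other libraries, a pattern noticed after the values were seen. The margin was small, 38.3 in control replicate 3 against 35.4 in paternal sedentary replicate 3. The share of all genes with this pattern was not computed, so it cannot be set against a background. Differences from controls were -1.04 ± 0.34 in maternal sedentary (limma, adjusted p = 1.00) and -0.95 ± 0.34 in maternal exercised offspring (adjusted p = 0.57), and limma's F test over all groups gave an adjusted p of 0.71. The highest control, replicate 2, and the lowest library, maternal sedentary replicate 3, are both among the 3 with least mitochondrially encoded RNA. Without maternal sedentary replicate 3 the first difference was -0.63, without both -0.40, and without the 4 liver libraries, which leaves 1 maternal sedentary library, -0.31.

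Cox4i1, the main form of subunit 4 and a regulatory site for ATP, had 11300, 15560 and 11439 in controls, 13220, 12214 and 13770 in maternal sedentary, 10720, 11468 and 11687 in maternal exercised, 10256, 11624 and 13854 in paternal sedentary and 10111, 11588 and 10589 in paternal exercised offspring. The 3 libraries of least mitochondrially encoded RNA, which include the highest control, were its 3 highest. All maternal exercised values lay below all maternal sedentary ones. Cox5a, a subunit on the matrix side, averaged 2425 ± 278 in controls, 2534 ± 291 and 2446 ± 181 in the maternal groups and 2892 ± 295 and 2661 ± 183 in the paternal groups. It gave the smallest p of complex IV for paternal sedentary offspring against controls, 0.25 ± 0.12 (limma, adjusted p = 0.92).

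The heart and muscle isoforms had their lowest means in exercised-dam groups. Cox6a2 had 17586, 23035 and 16386 in controls, 21724, 18601 and 22317 in maternal sedentary, 16463, 17899 and 17058 in maternal exercised, 16313, 18565 and 19400 in paternal sedentary and 16421, 16908 and 15598 in paternal exercised offspring. Cox7a1 had 3840, 5364 and 3801 in controls, 4711, 4079 and 4738 in maternal sedentary, 3674, 3877 and 3459 in maternal exercised, 3888, 3952 and 4693 in paternal sedentary and 3346, 3797 and 3430 in paternal exercised offspring. For both genes the maternal exercised libraries lay below all maternal sedentary ones, and Cox7a1 also separated in the paternal arm. Cox8b had 7578, 6613 and 8423 in maternal sedentary and 5997, 6442 and 5783 in maternal exercised offspring, without overlap, and -0.31 ± 0.12 (limma, adjusted p = 0.52) was the smallest p of complex IV for maternal exercise. Its control values were 6460, 7747 and 5751, and its paternal values 6153, 6954 and 7321 with sedentary and 6043, 6097 and 5778 with exercised dams, again without overlap.

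The ubiquitous isoforms had lower means in the exercised groups too. Cox6a1 had 351, 375 and 333 in maternal exercised offspring, and averaged 398 ± 86.8 in controls, 457 ± 118 in maternal sedentary and 380 ± 40.1 and 318 ± 26.2 in the paternal groups. Maternal sedentary replicate 2, the library with the most liver transcripts, had the highest value, 589. Cox8a had 502, 498 and 465 in maternal exercised offspring, and averaged 529 ± 53.2 in controls, 592 ± 41.3 in maternal sedentary and 519 ± 48.3 and 484 ± 60.5 in the paternal groups, and its highest value, 640, was in the same library. Cox7a2 had 2573, 2493 and 2414 in controls and 1978, 2219 and 2161 in paternal exercised offspring, a difference of -0.24 ± 0.09 (limma, adjusted p = 0.32) without overlap. Its maternal values were 2332, 2274 and 2211 with sedentary and 2156, 2283 and 2163 with exercised dams, and 2502, 2676 and 2195 in paternal sedentary offspring.

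Cox7b, a small subunit needed for assembly of complex IV, had the smallest p of all members for exercise in the paternal arm. Its values were 5396, 5286 and 4297 in paternal sedentary and 3843, 4259 and 4185 in paternal exercised offspring, a difference of -0.28 ± 0.11 (limma, adjusted p = 0.99). The groups did not overlap, though paternal sedentary replicate 3, at 4297, was close to the highest exercised library, at 4259. In the maternal arm the groups overlapped, and the arms differed by 0.19 ± 0.15 (limma, adjusted p = 1.00). The remaining complex IV members Cox5b, Cox6b1, Cox6c, Cox7a2l and Cox7c had group means that spanned 4660 to 5287, 5429 to 6184, 3520 to 3970, 999 to 1174 and 2251 to 2929, and each was lower with exercised than with sedentary dams in both arms.

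Complex V held the members with the highest normalized counts, a measure that is not corrected for gene length. Atp5b, the catalytic beta subunit, had 58208, 61248 and 56681 in controls, 61495, 57798 and 57610 in maternal sedentary, 55992, 55969 and 53612 in maternal exercised, 59099, 61142 and 54566 in paternal sedentary and 52938, 58752 and 54518 in paternal exercised offspring. The highest library was 1.16 times the lowest, the narrowest range of all 45 members. Atp5a1, the alpha subunit, had 48660, 55653 and 45146 in controls, 52518, 47571 and 55045 in maternal sedentary, 45210, 46116 and 44276 in maternal exercised, 47289, 51259 and 48400 in paternal sedentary and 42767, 47962 and 43520 in paternal exercised offspring. For both subunits the maternal exercised libraries lay below all maternal sedentary ones. Per kilobase, Atp5b, Atp5a1, Cox6a2 and Cox8b were the 4 highest members, whether exon length or the principal transcript was used, with mean RPKM over exons of 602, 682, 1192 and 814.

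Atp5c1, the gamma subunit of the central stalk, averaged 8583 ± 389 in controls, 8304 ± 1011 and 8588 ± 269 in the maternal groups and 9232 ± 1483 and 8645 ± 230 in the paternal groups, with overlap throughout. Atp5d, the delta subunit at the foot of that stalk, had 8715, 11298 and 7466 in controls, 9850, 8812 and 11268 in maternal sedentary, 7588, 7603 and 7663 in maternal exercised, 6767, 7748 and 9864 in paternal sedentary and 7545, 7961 and 7169 in paternal exercised offspring. Its 3 highest libraries were the 3 of least mitochondrially encoded RNA. It gave the smallest p of complex V for paternal sedentary offspring against controls, -0.17 ± 0.16 (limma, adjusted p = 0.92), with 0.12 without the liver libraries, and for the difference between arms, -0.29 ± 0.22 (adjusted p = 1.00).

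The c-ring, which turns as protons pass, is made from 3 genes that encode the same mature protein. Atp5g1 had 4611, 5469 and 3950 in controls, 5043, 4505 and 4715 in maternal sedentary, 3703, 4080 and 3863 in maternal exercised, 4304, 4601 and 4577 in paternal sedentary and 3798, 4119 and 3772 in paternal exercised offspring. Both exercised groups lay below their sedentary groups without overlap, and both crossed the controls at control replicate 3. Its differences from controls were -0.26 ± 0.11 in maternal exercised (limma, adjusted p = 0.57) and -0.25 ± 0.11 in paternal exercised offspring (adjusted p = 0.35). Exercise in the paternal arm gave -0.21 ± 0.11 (adjusted p = 0.99). Among members, Atp5g1 alone reached an unadjusted p under 0.05 in limma's F test over all groups, as did 6.71% of all genes, and its adjusted p was 0.71.

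Atp5g3 averaged 6078 ± 208 in controls, 6385 ± 349 and 5643 ± 326 in the maternal and 6424 ± 714 and 5698 ± 316 in the paternal groups. Atp5g2 averaged 737 ± 139 in controls, 790 ± 85.3 and 669 ± 42.5 in the maternal and 687 ± 145 and 626 ± 44.5 in the paternal groups. For Atp5g2, 86.4% of transcript windows are shared with other genes, so its counts are uncertain. Per kilobase of exon Atp5g3 made up 63.8% to 71.8% of the 3 genes' sum, and per kilobase of principal transcript 78.7% to 84.8%. The share of Atp5g1 was 19.6% to 24.5% by the first length and 7.89% to 10.3% by the second, since its principal transcripts run from 596 to 4715 bases, so Atp5g1 and Atp5g2 could not be put in order.

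Atp5k, the e subunit at the dimer interface, had the smallest p of all members for maternal exercise: -0.39 ± 0.14 (limma, adjusted p = 0.52). Its values were 4332, 4221 and 5166 in maternal sedentary and 3319, 3768 and 3364 in maternal exercised offspring, without overlap. Controls had 4096, 5414 and 3461, and the paternal groups 3626, 4493 and 4191 with sedentary and 3495, 3524 and 3444 with exercised dams, again without overlap. Atp5s, the coupling factor B gene that is no stable subunit of the enzyme, averaged 146 ± 29.6 in controls and 128 ± 27.8 in maternal sedentary offspring, -0.20 ± 0.20 (limma, adjusted p = 1.00), the smallest p of complex V in that comparison.

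With exercised dams Atp5l had a higher mean in both arms and Atp5mpl in the maternal but not the paternal arm. Atp5l, the g subunit, was sparse, with 78, 55 and 91 in controls, 63, 78 and 50 in maternal sedentary, 112, 85 and 90 in maternal exercised, 133, 84 and 52 in paternal sedentary and 70, 117 and 116 in paternal exercised offspring. For 69.0% of its transcript windows the sequence is shared with other genes, and its counts cannot be taken as its level. Atp5mpl, a small subunit of low GC content, averaged 1394 ± 345 in controls, 1259 ± 286 and 1411 ± 90.3 in the maternal and 1623 ± 480 and 1483 ± 141 in the paternal groups. Shared windows also touched Cox7c (44.4%), Atp5h (32.7%), Atp5o (30.3%), Uqcrc2 (22.7%) and Atp5f1 (16.8%), and 35.6% of the exon bases of Atp5o overlap exons of the opposite strand. The remaining subunits Atp5e, Atp5f1, Atp5h, Atp5j, Atp5j2 and Atp5o had group means that spanned 6296 to 7621, 5732 to 6286, 3784 to 4347, 4904 to 5589, 4687 to 5397 and 6625 to 7377. Atpif1, which inhibits the enzyme when it runs in reverse and is no member by symbol, had 163, 150 and 158 in controls, 129, 136 and 118 in maternal sedentary, 111, 129 and 153 in maternal exercised, 133, 129 and 143 in paternal sedentary and 151, 101 and 159 in paternal exercised offspring. The maternal sedentary and the paternal sedentary values both lay below all controls, as did those of 3.58% and 3.05% of all genes.

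Genes around the complexes were counted from lists. The 37 nuclear genes of complex I, which feeds electrons from NADH into the same chain, had lower means for 29 in maternal and 37 in paternal exercised against sedentary offspring, with medians of -0.13 and -0.11. Of 36 tested assembly factors of complexes II to V, 23 and 25 were lower (medians -0.08 and -0.04). Of 17 citric acid cycle genes, 14 and 13 were lower (medians -0.07 and -0.06), and of 8 carriers that move ADP, ATP, phosphate and substrates, 3 and 6. Of 17 regulators of mitochondrial biogenesis, 10 and 8 were lower. None of these genes passed the adjusted threshold.

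Cycs, cytochrome c, which shuttles between complexes III and IV, averaged 1539 ± 99.1 in controls, 1493 ± 59.1 and 1257 ± 33.8 in the maternal and 1496 ± 153 and 1323 ± 118 in the paternal groups, with maternal exercise at -0.25 ± 0.10 (limma, adjusted p = 0.52). Cs, citrate synthase, a common measure of mitochondrial content, differed by -0.10 ± 0.10 with maternal exercise (limma, adjusted p = 0.67) and -0.02 ± 0.10 with paternal exercise (adjusted p = 0.99). Ppargc1a, the coactivator PGC-1α that drives mitochondrial biogenesis, averaged 584 ± 195 in controls, 669 ± 134 and 483 ± 216 in the maternal and 633 ± 212 and 529 ± 163 in the paternal groups, with overlap throughout. Nrf1 and Tfam, which act on nuclear and mitochondrial promoters, differed by 0.06 ± 0.13 and 0.09 ± 0.17 with maternal and by 0.08 ± 0.13 and 0.09 ± 0.17 with paternal exercise (limma, adjusted p = 0.83 to 0.99).

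Of the partner subunits made from mitochondrial DNA, both genes with usable counts, mt-Cytb of complex III and mt-Co1 of complex IV, had higher means with exercised dams, by a median of 0.57 in the maternal and 0.16 in the paternal arm, and neither passed the test. The other mitochondrial genes on the list were listed at or near 0: mt-Co3, mt-Atp6 and mt-Atp8 had no read in any library. mt-Co2 had at most 1.78 normalized counts. Muscle mitochondria use all of these, so the zeros give no level. The direction in the paternal arm rests on paternal sedentary replicate 3: without it the mt-Cytb means were 199376 with sedentary and 184264 with exercised dams, and those of mt-Co1 220808 and 187863, so both turned lower, by -0.12 and -0.24. Without maternal sedentary replicate 3 the maternal differences were 0.19 for mt-Cytb and 0.14 for mt-Co1.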

How the data were processed

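Quadriceps RNA of 15 mice, 3 in each of 5 groups, was sequenced as 100-base single-end reads with a stranded kit after ribosomal RNA depletion, per the labels' protocols. The submitters' processing notes list DESeq2 1.11.8, featureCounts 1.5.2 and STAR 2.5.2b, and mm10 as the build. No source used here states if strand was counted. The deposited values are a signal for each gene in each library, read counts divided by a size factor per library, as deduced from the values: each value was a whole multiple of 1 step (tolerance 0.001 of a read, 100% of values). Depth was 18457663 to 26981745 reads per library, and 0 sample columns were left unused.

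Of 50686 rows, 50462 matched GENCODE M21 by identifier. In R 4.3.3, the main fit used lmFit, contrasts.fit and eBayes with trend of limma 3.58.1, on log2(normalized count + 1) of 13499 genes with a mean of at least 10, with all 15 libraries in 1 fit and Benjamini-Hochberg adjustment over all genes. On this scale the change of low genes is understated. On the recovered reads edgeR 4.0.16, DESeq2 1.42.0 and voom were alternatives, beside other pseudocounts, filters and scalings, leaving out each library, the doubted libraries, and a covariate from the leading title code. A fit without the 3 libraries of least mitochondrially encoded RNA and a fit with the GC trend removed in each library were chosen after seeing the data. The fit was tested on simulated data. Replicate numbers follow accession order and pair nothing.

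Members and lists were chosen with earlier results of these data known. Fitted differences are given, per complex and comparison, for the member with the smallest unadjusted p. The catalytic subunits, the isoform pairs, the c-ring genes and Atpif1 always have values, as do Ppargc1a, Nrf1, Tfam, Cycs, Cs, Myh7 and Alb where a result turns on them, and other members are named with group values. Shares of windows common to other genes count 100-base windows of GENCODE transcripts. GC content and coding bases are of the principal transcript, and promoters are from RefSeq. Figures were drawn with matplotlib 3.10.9.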

Additional observations from a re-analysis of the deposited data

How the results depend on the processing

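No paired analysis was possible because replicate numbers follow accession order and tie no libraries across groups. In 179 fits over all settings, 0 members were called. Counts of called genes of any kind moved from 0. DESeq2 called 18 genes for maternal sedentary against control, 60 for maternal exercise, 1 for paternal exercise, 65 for paternal exercised against control and 186 in the test over all groups. With the title code as a covariate 16, 11 and 1 genes were called for maternal exercise, paternal exercise and the difference between arms, whose member median was then -0.10. This code is shared by the maternal sedentary group and 1 maternal exercised library, so that fit rests on few libraries. Leaving out 1 library gave 0 to 109 genes for maternal exercise, with the highest count without maternal sedentary replicate 1, and 0 to 1 for maternal sedentary and paternal exercised against control and for paternal exercise.

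Scaling to total reads gave member medians of -0.050 for maternal exercise, -0.049 for maternal exercised against control, -0.22 for paternal exercise, 0.088 with 6 lower members for paternal sedentary against control, and 0.18 with 2 lower for the difference between arms. This scaling moved all genes, of which 32.0% and 24.1% were lower in the last 2. Relative to the median of all genes the members lay at -0.02 and -0.01 there. For maternal sedentary against control, 7 members were lower (median 0.12) without the 4 liver libraries, which leaves 1 maternal sedentary library, and 11 without the 2 libraries of few detected genes or the 3 of least mitochondrially encoded RNA. For paternal sedentary against control these fits gave 9 (median 0.073), 11 (0.056) and 10 (0.067), and leaving out 1 library gave 11 to 29 (-0.048 to 0.056).

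Signs were recomputed only for 28 differences, those of the member with the smallest unadjusted p in each complex and comparison. Of the 602 values this gave, 590 kept their sign and 12 turned. These members were selected by p, so the count does not describe the other members. Among all members, 25 were lower in paternal sedentary offspring than in controls. Without control replicate 2, 11 were lower, and 6 of them were among the 25. Sdhc in maternal sedentary offspring turned to 0.073 without the liver libraries and 0.049 without the 2 or the 3 others (-0.10 to 0.018 leaving out 1 library). In paternal sedentary offspring Sdhd turned to 0.0064 on total reads, 0.0069 without the liver libraries and 0.017 without the 3, and Cyc1 and Atp5d turned to 0.0038 and 0.12 without the liver libraries. Sdhb in the difference between arms turned to 0.13 on total reads and 0.025 with the GC trend removed (-0.12 to 0.0082 leaving out 1 library). With principal transcript lengths the mean log2 ratios were -8.67 for Cox4i2 to Cox4i1, 5.34 for Cox6a2 to Cox6a1 and 4.27 for Cox8b to Cox8a, and the shares of Atp5g1 and Atp5g3 were 8.89% and 81.8%. The cause of the other changes was not tested. Counts of 11 to 63 reads limit Cox4i2, and 46 to 149 reads limit Atp5l.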
